A study of Mus musculus with 6 samples.

Results

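Heat shock proteins and their J-domain partners were followed in the embryonic gut epithelium with and without the transcription factor TCF7L1. The set holds every gene whose symbol in the count tables begins with Hspa, Hspb, Hspd, Hspe or Hsph and a digit, with Hsp90, or with Dnaja, Dnajb or Dnajc and a digit. There were 72 such genes among the 23366 listed, and the rule reads the symbols only. RNA-sequencing was done on EpCAM-positive epithelium sorted from E13.5 small intestine, 500 living cells per library. Of the 6 libraries, 3 carried the genotype Shh-cre-egfp:Tcf7l1 lox/lox (mutant 1 to 3) and 3 were wild type (wild type 1 to 3). In the mutants Cre is made from the Shh locus and removes a floxed exon of Tcf7l1 wherever Shh is active in the gut lining. The insertion leaves them with 1 intact Shh allele less than wild type, and no library from embryos with Cre alone is among the 6. The total counts lay between 18216537 and 20397278 per library.

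The labels were checked first. Tcf7l1 had normalized counts of 476, 473 and 363 in wild type 1, 2 and 3 and of 41.4, 33.0 and 72.9 in mutant 1, 2 and 3, a fall to 0.112 of the wild type level. Shh was also lower in every mutant library, with means of 480 ± 65.7 and 197 ± 22.6 (SD, n = 3). Summed markers of epithelium lay between 156000 and 166000 in wild type and between 151000 and 155000 in mutant libraries, and of the 8 genes 2 rose and 5 fell past an adjusted p of 0.05 (edgeR). Epcam, the gene of the sorting marker, and Cldn7 rose, with log2 fold changes of 0.25 and 0.24, Vil1 lay at -0.06, and Cdh1, Krt18 and Cdx2 were called lower at -0.57, -0.54 and -0.68. Summed markers of mesenchyme lay at 1310 to 1530 and 1030 to 1460, those of neural crest at 207 to 244 and 194 to 277, those of blood at 20.9 to 32.6 and 5.32 to 10.3 with 5 of 8 genes at 0, and those of endothelium at 0 to 12.3 and 0 to 21.7 with 3 of 5 genes at 0. Of the 8 mesenchyme genes 3 were tested, and they moved both ways. Vim and Col3a1 fell, with log2 fold changes of -0.46 and -2.21 (edgeR adjusted p = 0.0049 and 0.026). Acta2 rose at 1.52 (edgeR adjusted p = 0.014), with 95.1, 171 and 488 in mutant 1 to 3 against 69.3, 105 and 87.3 in wild type 1 to 3. RNA of the Y chromosome genes Ddx3y, Eif2s3y, Uty and Kdm5d was read in all 3 wild type and in 0 mutant libraries, and Xist the other way round, so sex and genotype cannot be told apart. Of the 72 chaperone genes, 0 lie on the X chromosome. The share of cells in a state and the RNA per cell cannot be told apart in such pooled cells.

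Chaperones keep other proteins folded. HSP70 proteins bind and release exposed stretches of a client under the control of ATP, and J-domain proteins bring them their clients and set off ATP hydrolysis. HSP110 proteins exchange the nucleotide, HSP90 proteins finish the folding of kinases and receptors, small HSPs hold unfolded clients, and HSP60 with HSP10 forms a folding chamber in mitochondria. Each compartment has its own set. The cytosolic set is the classical target of the heat shock factor HSF1, and that of the endoplasmic reticulum (ER) is a target of the unfolded protein response, through ATF6, XBP1 and ATF4. The gut epithelium makes and secretes much protein, and its ER chaperones are best known from goblet and Paneth cells. By compartment, 43 of the 72 genes were put in the cytosol and nucleus, 14 in the ER, 8 in the mitochondrion and 7 elsewhere or in none.

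The windows before the start sites of 5 members, and an 18-base site of another, are printed because they hold the letters of elements known from heat shock and ER stress genes. Only some of the members hold such letters. Sequences are RefSeq promoter windows of GRCm38.p6, which held 58 of the 72 genes, and each was found once, letter for letter, on that strand of its chromosome in mm9, whose coordinates are given. Bases after the start site and in annotated exons of coding transcripts were left off, except that the site of Hspe1 lies within a first exon annotated for Hspd1. Hspa1b (chr17:35096184-35096433, minus strand) and Hspa1a (chr17:35109102-35109351, minus strand) encode the inducible cytosolic HSP70, and their whole windows are the same at 296 of 300 bases. Capitals mark a pair of heat shock element units, GAANNTTC, which begins 104 bases before the start site in both.
Hspa1b: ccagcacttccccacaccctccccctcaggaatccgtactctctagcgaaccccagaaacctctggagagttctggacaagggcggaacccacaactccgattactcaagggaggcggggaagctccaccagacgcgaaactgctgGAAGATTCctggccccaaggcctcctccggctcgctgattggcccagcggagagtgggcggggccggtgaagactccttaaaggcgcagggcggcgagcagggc
Hspa1a: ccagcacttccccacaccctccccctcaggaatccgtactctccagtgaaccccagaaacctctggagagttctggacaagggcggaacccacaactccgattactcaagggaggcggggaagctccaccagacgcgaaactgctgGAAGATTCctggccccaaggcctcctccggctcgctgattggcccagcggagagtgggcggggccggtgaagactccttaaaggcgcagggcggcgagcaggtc
A pair of units alone is common. GAANNTTC or TTCNNGAA, searched on both strands, was in the windows of 16 of the 58 genes and of 17.0% of the 27025 genes with a window. The form with 3 units, GAANNTTCNNGAA on either strand, was in those of Dnajb6, Hspd1, Hspe1 and Hsph1 and of 0.662% of all genes. Hspe1 and Hspd1, which encode mitochondrial HSP10 and HSP60, lie head to head with overlapping ends. At chr1:55144903-55144920 (shown on the plus strand, the strand of Hspe1), the first of 2 overlapping 3-unit matches begins 89 bases before the RefSeq start site of Hspe1. All bases of the site are capitals.
Hspe1: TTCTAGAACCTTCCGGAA
Among ER genes, the ER stress response element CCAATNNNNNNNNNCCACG, searched on both strands, was in the windows of Hspa5, Hsp90b1 and Dnajc3 and of 0.137% of all genes. Capitals mark it in Hspa5 (chr2:34627360-34627609, plus strand), at 2 places in Hsp90b1 (chr10:86168255-86168439, minus strand) and in Dnajc3 (chr14:119336904-119337153, plus strand).
Hspa5: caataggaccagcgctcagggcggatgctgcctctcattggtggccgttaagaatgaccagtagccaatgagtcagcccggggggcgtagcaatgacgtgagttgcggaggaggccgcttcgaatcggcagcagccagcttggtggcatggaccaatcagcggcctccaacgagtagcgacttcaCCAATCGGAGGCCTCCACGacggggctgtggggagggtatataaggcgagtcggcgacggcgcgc
Hsp90b1: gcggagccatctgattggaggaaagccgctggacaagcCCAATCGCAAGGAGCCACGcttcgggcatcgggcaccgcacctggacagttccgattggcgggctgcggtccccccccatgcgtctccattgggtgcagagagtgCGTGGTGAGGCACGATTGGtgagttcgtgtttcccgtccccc
Dnajc3: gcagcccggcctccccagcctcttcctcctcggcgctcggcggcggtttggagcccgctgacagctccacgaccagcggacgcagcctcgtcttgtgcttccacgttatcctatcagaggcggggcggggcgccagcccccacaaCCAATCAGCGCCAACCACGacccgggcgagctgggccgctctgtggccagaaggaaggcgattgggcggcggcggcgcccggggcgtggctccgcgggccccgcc
These letters are matches, not measured binding sites, and the windows of Dnajb9 and Dnajb11 held no match to this one.

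A few genes made up most of the chaperone RNA. The 72 genes took 1.68%, 1.61% and 1.59% of all counts of wild type 1 to 3, against 1.68%, 1.64% and 1.68% of mutant 1 to 3, ranges that overlap. Hsp90ab1, Hspa5, Hspa8, Hspd1 and Hsp90b1 together held 62.6% of these counts. Per length of annotated exon, the mean over the 6 libraries was 982 RPKM (reads per kilobase of exon, scaled for the size of the library) for Hsp90ab1, the constitutive cytosolic HSP90. It was 731 RPKM for Hspa5, the HSP70 of the ER known as BiP, 593 for Hspd1, 464 for Hspa8, the constitutive cytosolic HSP70, and 328 for Hsp90b1, the HSP90 of the ER. The inducible pair was far lower, at 1.42 RPKM for Hspa1b and 0.563 for Hspa1a. J-domain genes peaked at 153 RPKM for Dnajc8, a nuclear protein linked to splicing, 138 for Dnaja2 and 123 for Dnajc9, a histone chaperone. Of the 72 genes, 11 were too low to be tested, with at most 28 counts over the 6 libraries. These were Hspa12b, Hspb2, Hspb3, Hspb7, Hspb9, Dnajb7, Dnajb8, Dnajb13, Dnajc5b, Dnajc5g and Dnajc6, and 5 of them were listed at 0 in all libraries.

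**Figure D1:**
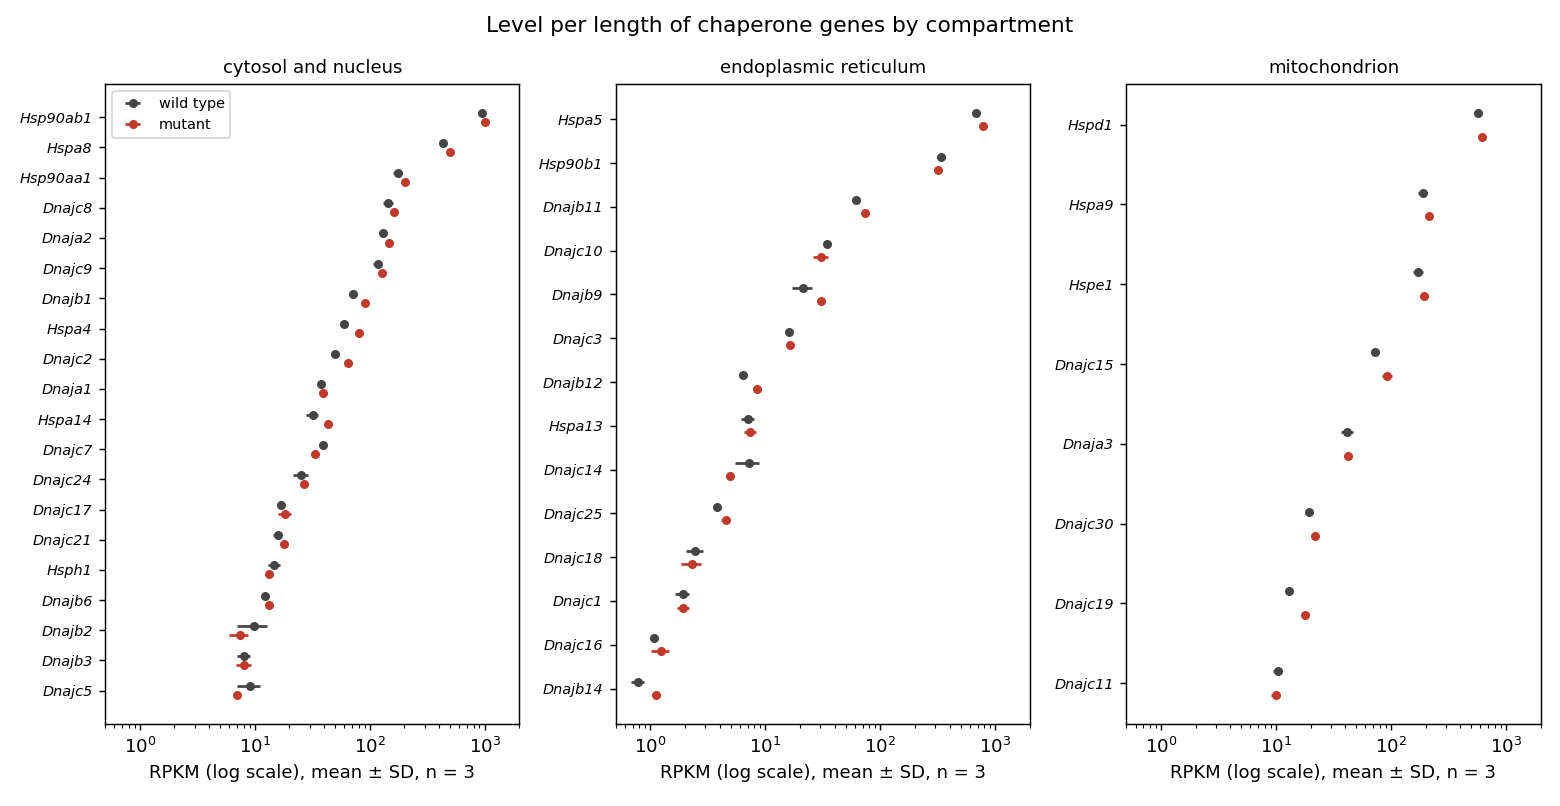
Mean RPKM on a log scale (horizontal axis) of the members in 3 compartments, with wild type in grey and mutant in red, bars being the SD over 3 libraries. The 20 highest genes of the cytosol and nucleus are drawn, and all of those of the other compartments. Hsp90ab1, Hspa5 and Hspd1 head the compartments at 982, 731 and 593 RPKM over all libraries, and the groups lie close to each other in every row.

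The main question was whether chaperone genes differ between mutant and wild type epithelium, and in which compartment. Groups were compared by the quasi-likelihood test of edgeR, with p-values adjusted by Benjamini and Hochberg over the 12501 genes tested, and 61 members were among them. A call took an adjusted p below 0.01, a log2 fold change of 0.5 or more in size, and 50 or more normalized counts on average. By this rule Hspa1b and Dnajb9 were higher in the mutants, 2 members or 3.28% where 2.78% of all tested genes were called higher. Dnajc27 was the 1 member called lower, 1.64% where 5.83% of all tested genes were. Under an adjusted p of 0.05 alone, 16 members rose (26.2%, against 13.6% of all tested genes) and 6 fell (9.84%, against 15.1%). In 19 members every mutant library lay above every wild type library, 31.1% where 20.8% of all tested genes did so, and in 5 every one lay below, 8.2% where 22.2% did. The count of 16 was 8 without wild type 2 and 8 without mutant 1, 10 without mutant 2, 10 without mutant 3, 11 without wild type 1 and 20 without wild type 3. The share of all tested genes that rose was 8.63%, 9.13%, 8.21%, 9.59%, 8.16% and 18.3% in the same order. The count of 6 was 1 without mutant 2, 2 without wild type 1, wild type 2 or mutant 1, 3 without mutant 3 and 7 without wild type 3, while 9.24% to 11.6% of all genes fell in the first 5 of these fits and 16.8% in the last. Whichever library was left out, 8 of the 22 still passed, namely Hspa1b, Hspa4, Hspa14, Dnajb1, Dnajb9, Dnajc2 and Dnajc19 among those higher and Dnajc27 among those lower. The same count over all tested genes was not made, so these 8 cannot be set against a share of all genes.

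The level of the genes goes with these shares. Among genes with a mean normalized count of at least 1000, 37.9% of 29 members rose at an adjusted p under 0.05 and 6.9% fell, and of all 4270 such genes 30.1% rose and 10.8% fell. Below that level the members gave 15.6% and 12.5% of 32, and all genes 5.05% and 17.4% of 8231. The median log2 fold change was 0.17 for the higher members and 0.12 for all higher genes, and -0.03 and -0.18 for the lower ones. The shares moved with the scaling too. With library size as the only scaling the median of all tested genes moved from -0.04 to -0.15 and 8 members rose, where 8.01% of all genes did. With a correction for gene length it moved to 0.10 and 26 members rose, where 23.1% of all genes did. Of all genes called, 32.3% were higher in the mutants in the first analysis, 17.3% with library size alone and 66.1% with the length correction.

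**Figure D2:**
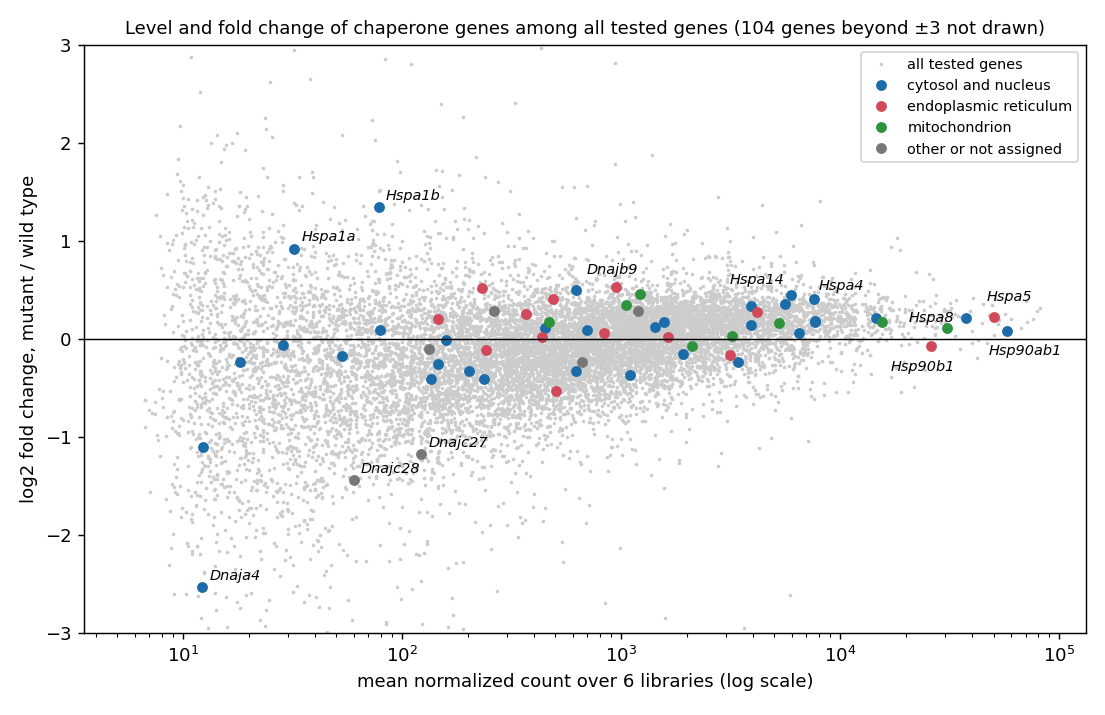
Log2 fold change of mutant over wild type (vertical axis) against the mean normalized count over 6 libraries (horizontal log axis), with all tested genes as grey points and the members coloured by compartment. The 104 genes beyond a log2 fold change of 3 in either direction are not drawn. Most members above 1000 normalized counts lie just above 0, as do most other genes there, and Hspa1b, Dnajc27, Dnajc28 and Dnaja4 stand apart at low counts.

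By compartment, the median log2 fold change was 0.09 for the cytosol and nucleus (33 tested, of which 8 rose and 3 fell past an adjusted p of 0.05), 0.13 for the ER (14 tested, 5 higher and 1 lower) and 0.16 for the mitochondrion (8 tested, 2 higher and 0 lower). It was -0.17 for the 6 others, of which 1 was higher and 2 were lower. By the same threshold 13.6% of all tested genes rose and 15.1% fell. Among all genes with a mean of at least 1000 normalized counts, 30.1% rose and 10.8% fell, with a median of 0.12. The counts by compartment and by family below are to be read beside these shares. As a share of all counts, the cytosolic and nuclear genes took 0.883%, 0.848% and 0.846% of wild type 1 to 3, and 0.894%, 0.886% and 0.898% of mutant 1 to 3 (exact two-sided permutation p = 0.1, the smallest that 3 against 3 allows). ER genes took 0.454% ± 0.0216 and 0.457% ± 0.00971 (SD, n = 3; exact p = 0.8), and mitochondrial genes 0.301% ± 0.00838 and 0.307% ± 0.00712 (SD, n = 3; exact p = 0.5). By family, the HSP genes gave 6 higher and 0 lower of 22 tested, and the J-domain genes 10 higher and 6 lower of 39. Of these the Dnajb genes gave 6 higher and 0 lower of 10, and the Dnajc genes 4 higher and 5 lower of 25. With library size as the only scaling, medians were -0.02 for the cytosol and nucleus, 0.02 for the ER and 0.06 for the mitochondrion, the HSP genes gave 3 higher and 1 lower, and the Dnajb genes 3 higher and 0 lower. With the length correction the medians were 0.15, 0.35 and 0.20 in the same order, and the Dnajc genes gave 7 higher and 2 lower. The difference between families was not tested.

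**Figure D3:**
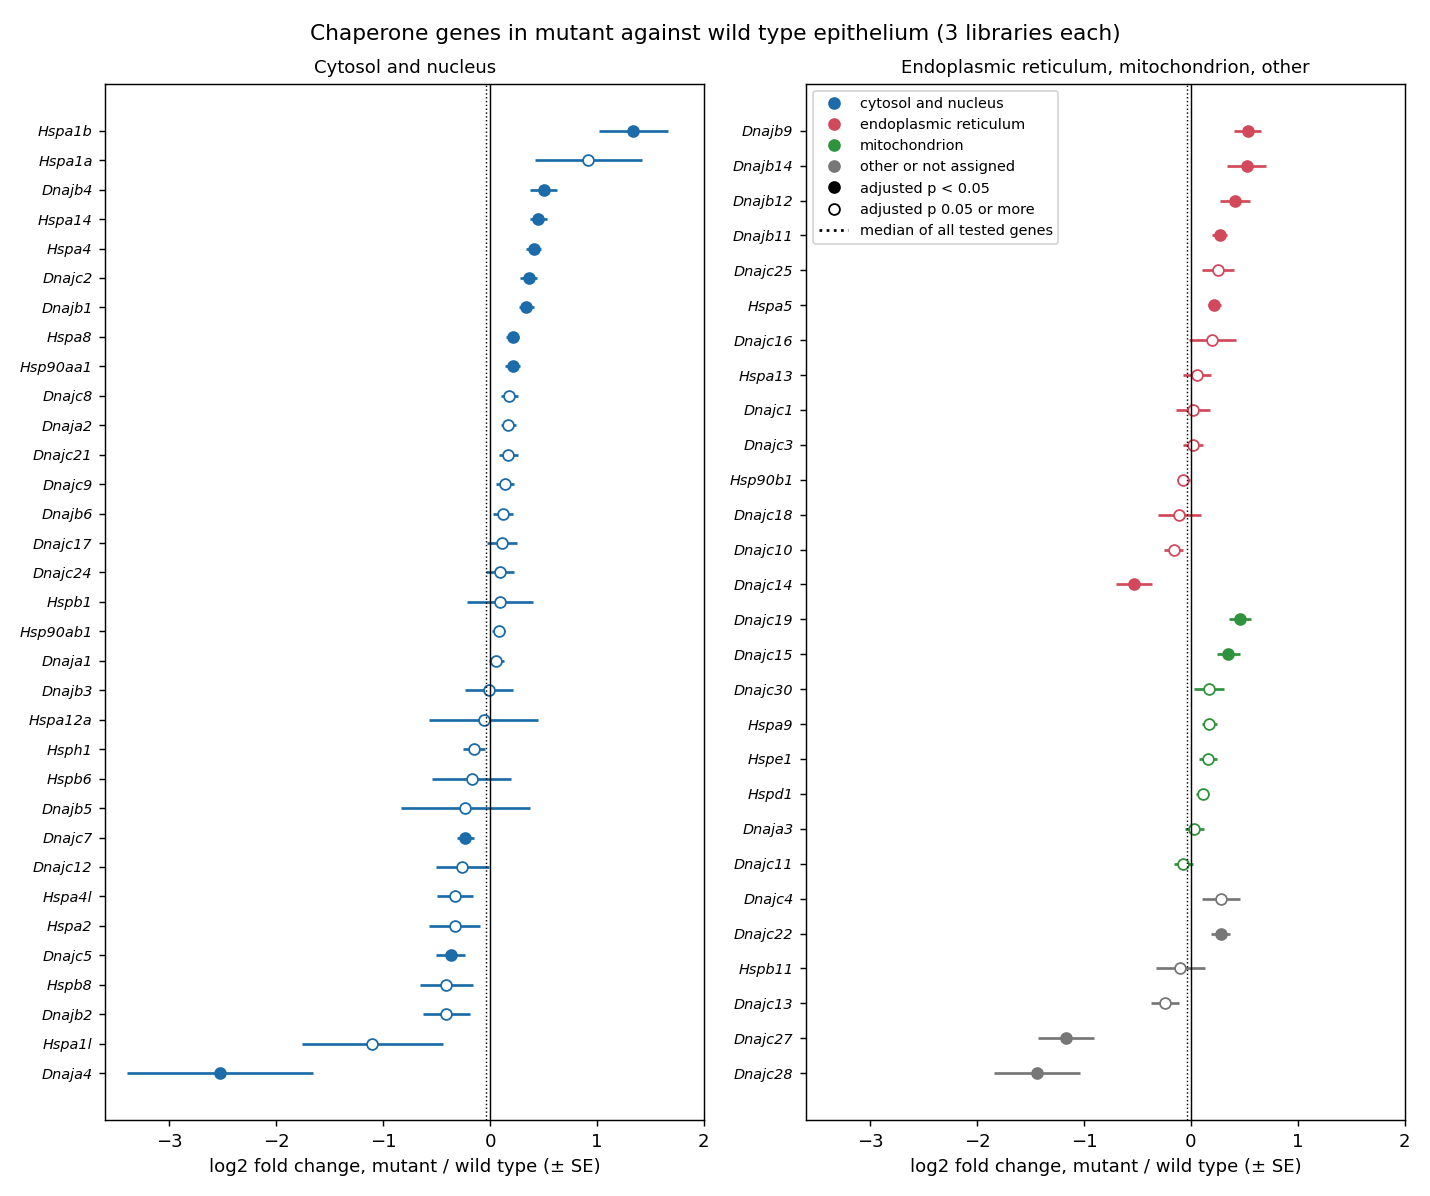
Log2 fold change of mutant over wild type for the 61 tested members, with bars of 1 SE, sorted within compartments. Filled points passed an adjusted p of 0.05, and the dotted line is the median of all tested genes at -0.04. Hspa1b is highest at 1.34 and Dnaja4 lowest at -2.53, and the abundant HSP90 genes Hsp90ab1 and Hsp90b1 lie beside 0.

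In the cytosol the inducible HSP70 was the member with the largest rise. Hspa1b (chr17:35093381-35096183, minus strand) had normalized counts of 36.5, 54.9 and 40.8 in wild type 1, 2 and 3 and of 137, 102 and 95 in mutant 1, 2 and 3. Each mutant library was above each wild type library, and the log2 fold change was 1.34 (SE 0.32, edgeR adjusted p = 0.0057). Its near-identical neighbour Hspa1a (chr17:35106144-35109069, minus strand) had 18.7, 24.2 and 23.7 against 63.1, 27.6 and 35.3, with mutant 1 far above the others, and did not pass (log2 fold change 0.92, SE 0.50, edgeR adjusted p = 0.18). The coding sequences are 99.4% identical, and 53.5% of all 84-base stretches of the Hspa1b transcript, the read length of the study, also stand in that of Hspa1a. Reads from those stretches could not be counted as unique, so the level of either gene is uncertain, and 18.9% of the exons of Hspa1a lie opposite those of Gm20481. Summed, the pair had 55.2, 79.1 and 64.5 normalized counts, against 201, 130 and 130 in the mutants. The fold was 2.32, and 1.96 without mutant 1 (exact two-sided permutation p = 0.1, the smallest possible). The call of Hspa1b needed nearly all libraries, as it was lost without wild type 1 (edgeR adjusted p = 0.029), wild type 3 (0.011), mutant 1 (0.038), mutant 2 (0.0147) or mutant 3 (0.0103), with log2 fold changes of 1.16 to 1.44, and with library size as the only scaling (1.23, adjusted p = 0.012).

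Other HSP70 genes of the cytosol rose by less. Hspa8 had 35400, 32800 and 36200 in wild type 1 to 3 and 40200, 40600 and 40000 in mutant 1 to 3, without overlap, a log2 fold change of 0.21 (SE 0.06, edgeR adjusted p = 0.017). Scaled by library size alone it did not pass (0.10, adjusted p = 0.096). It has 5 near-identical loci elsewhere in the genome, and 6.3% of its exons are shared with small nucleolar RNA genes of the same strand. Hspa14, an HSP70 that works on the ribosome, had 5000, 4440 and 5610 against 6830, 7140 and 6570, a log2 fold change of 0.45 (SE 0.08, adjusted p = 0.001). Dnajc2, the J-domain subunit that pairs with it in the ribosome-associated complex, had 4770, 4540 and 5380 against 6330, 6520 and 6000, a log2 fold change of 0.36 (SE 0.08, adjusted p = 0.0028). In both genes of this complex the lowest mutant library was above the highest wild type library. So it was in 40.4% of all genes with a mean of at least 1000 normalized counts. Without wild type 3, Hspa14 passed the calling rule at a log2 fold change of 0.55. The low members Hspa2, Hspa12a and Hspa1l did not pass, at log2 fold changes of -0.33, -0.06 and -1.10 with SEs of 0.24, 0.51 and 0.66, and 72% of the exons of Hspa1l lie opposite those of Gm10501.

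The nucleotide exchange factors of the HSP110 family did not move together. Hspa4 had 6790, 6230 and 6410 normalized counts in wild type 1 to 3 and 8870, 8230 and 8770 in mutant 1 to 3. The groups were well apart, at a log2 fold change of 0.41 (SE 0.07, edgeR adjusted p = 0.00043), the smallest adjusted p of any member. Hsph1, the heat-inducible form, had 2090, 2210 and 1730 against 1810, 1730 and 1890, overlapping, at -0.15 (SE 0.10, adjusted p = 0.26). Hspa4l had 744, 806 and 523 against 504, 471 and 674, also overlapping (-0.33, SE 0.17, adjusted p = 0.16).

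Of the cytosolic HSP90 genes 1 passed and 1 did not. Hsp90aa1, the inducible form, had 13200, 12300 and 14600 against 15300, 15800 and 15500, and rose by a log2 fold change of 0.21 (SE 0.07, edgeR adjusted p = 0.034), which with library size alone was 0.11 (adjusted p = 0.16). Hsp90ab1 had 58300, 56100 and 52800 against 59500, 57600 and 60200, where mutant 2 lay below wild type 1 (0.08, SE 0.06, adjusted p = 0.31). Over all fits tried, log2 fold changes ran from 0.11 to 0.43 in Hsp90aa1 and from -0.02 to 0.24 in Hsp90ab1. The lowest adjusted p of Hsp90ab1 among them was 0.0049 (edgeR or DESeq2), so whether each of the 2 passed depended on the fit. The difference between the 2 genes was not tested, and Hsp90aa1 has 2 near-identical loci elsewhere. Small HSPs were scarce. Hspb1, the highest per length at 3.92 RPKM, had 56.2, 77.3 and 95.8 against 81.7, 67.0 and 95 (0.09, SE 0.31, adjusted p = 0.86). Hspb6 and Hspb8 did not pass either, at -0.17 (SE 0.37) and -0.41 (SE 0.25).

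Of the cytosolic and nuclear J-domain genes, 18 were tested, 3 rose and 3 fell, where 13.6% of all tested genes rose and 15.1% fell. Dnajb1, the main stimulator of cytosolic HSP70, had 3430, 3390 and 3570 in wild type 1 to 3 and 4400, 4470 and 4270 in mutant 1 to 3, with little spread in either group (log2 fold change 0.34, SE 0.07, edgeR adjusted p = 0.0021). Its relative Dnajb4 had 586, 464 and 488 against 707, 764 and 698 and narrowly missed the calling rule (0.50, SE 0.13, adjusted p = 0.0101), though DESeq2 and RLE scaling both called it at 0.52. Dnaja1, the farnesylated partner of Hspa8, had 6320, 6010 and 6570 against 6590, 6570 and 6560, overlapping (0.06, SE 0.07, adjusted p = 0.52). Dnaja2 lay higher in every mutant library, at 8210, 8100 and 7910 against 7250, 6810 and 7440, and did not pass (0.17, SE 0.07, adjusted p = 0.062). Dnajc8 had 6810, 6690 and 7950 against 8150, 8450 and 7660 and did not pass either (0.18, SE 0.08, adjusted p = 0.098).

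The 3 that fell differ in level. Dnajc7, which passes clients between HSP70 and HSP90, had 3600, 3610 and 3850 against 2940, 3170 and 3310 (-0.23, SE 0.08, edgeR adjusted p = 0.030), a fall that the length correction took away (adjusted p = 0.99). Dnajc5, the cysteine string protein of secretory vesicles, had 1190, 1510 and 975 against 994, 880 and 963, overlapping, at -0.37 (SE 0.14, adjusted p = 0.0498). Dnaja4 had 35.6, 16.8 and 10.4 against 5.17, 5.32 and 0 (-2.53, SE 0.87, adjusted p = 0.040). That gene is at the lower end of what was tested, and 44.1% of its exons lie opposite those of Wdr61, from which its reads could not be told apart unless strand was counted. Among the other 12, log2 fold changes ran from -0.41 in Dnajb2 to 0.18 in Dnajc8.

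**Figure D4:**
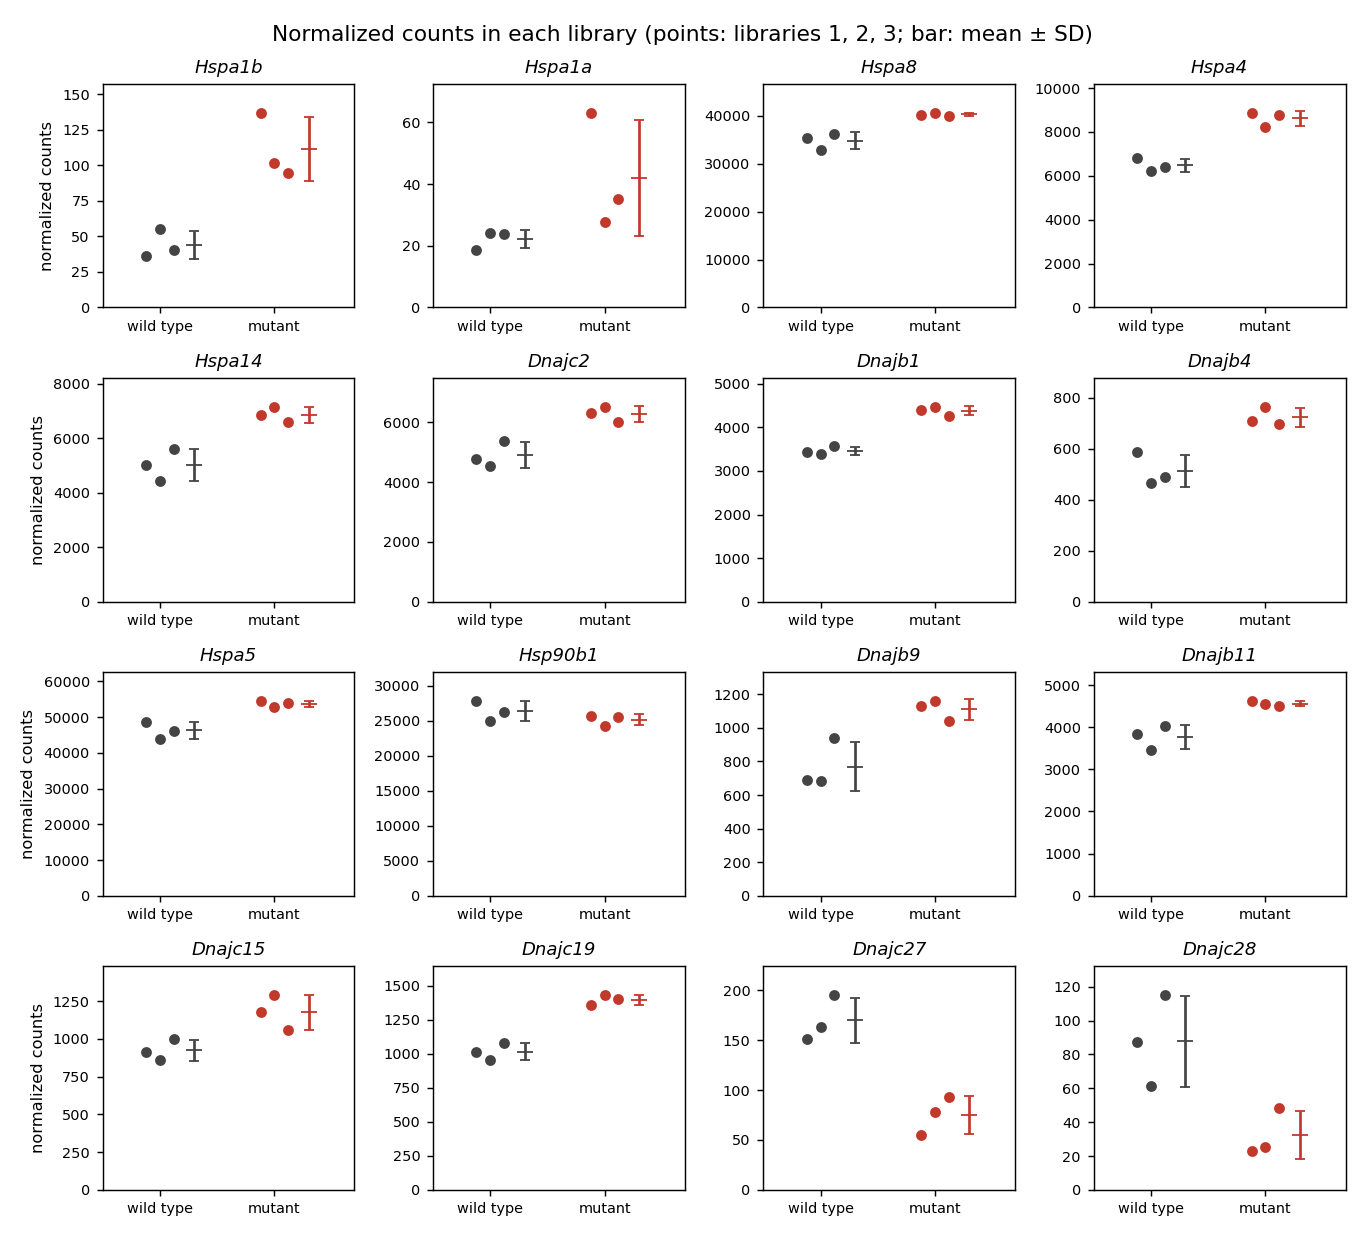
Normalized counts (vertical axes from 0, each panel with its own scale) of 16 members in wild type 1 to 3 (grey) and mutant 1 to 3 (red), with the mean and SD of each group as a bar to the right of its points. The groups overlap only in Hsp90b1, and mutant 1 is the highest library for Hspa1a and Hspa1b at 63.1 and 137.

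In the ER the called gene was Dnajb9, an ER cochaperone known as ERdj4 that represses the stress sensor IRE1 and helps to degrade misfolded proteins. Dnajb9 (chr12:45306884-45311055, minus strand) had normalized counts of 690, 681 and 938 in wild type 1, 2 and 3 and of 1130, 1160 and 1040 in mutant 1, 2 and 3. Wild type 3 came nearest to the mutants, with no overlap, and the log2 fold change was 0.53 (SE 0.13, edgeR adjusted p = 0.0066). The fold was near the limit of 0.5, and the call was lost without wild type 1 (adjusted p = 0.041), wild type 2 (0.038), mutant 1 (0.027), mutant 2 (0.030) or mutant 3 (0.014), with log2 fold changes of 0.45 to 0.57, and scaled by library size alone (0.43, adjusted p = 0.021). Dnajb11, a lumenal partner of BiP, had 3850, 3460 and 4020 against 4620, 4560 and 4500 (0.27, SE 0.07, adjusted p = 0.013). The membrane-bound Dnajb12 had 400, 437 and 411 against 530, 524 and 609 (0.41, SE 0.14, adjusted p = 0.032). The other membrane-bound form, Dnajb14, had 173, 218 and 181 against 256, 293 and 268 (0.52, SE 0.18, adjusted p = 0.044). In all 4 Dnajb genes placed in the ER, every mutant library lay above every wild type library. So it was in 20.8% of all tested genes. Among genes with a mean of at least 1000 normalized counts, the level of Dnajb11, it was so in 40.4%.

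The 3 genes with the ER stress response element in the windows printed above gave different values. Hspa5 had 48700, 44000 and 46200 in wild type 1 to 3 and 54500, 52800 and 54000 in mutant 1 to 3, without overlap, at a log2 fold change of 0.22 (SE 0.06, edgeR adjusted p = 0.013), and of 0.11 with library size alone (adjusted p = 0.10). Hsp90b1 had 27800, 25000 and 26300 against 25700, 24300 and 25500, overlapping, at -0.07 (SE 0.06, adjusted p = 0.45). Dnajc3, a lumenal cochaperone that also binds misfolded clients, had 1590, 1720 and 1580 against 1590, 1760 and 1630, at 0.02 (SE 0.09, adjusted p = 0.86). Over all fits tried, log2 fold changes ran from 0.11 to 0.41 in Hspa5, -0.17 to 0.16 in Hsp90b1 and -0.08 to 0.26 in Dnajc3. The differences between these genes were not tested. Dnajc10, a disulfide reductase, had 3330, 3360 and 3250 against 2470, 3280 and 3150, where only mutant 1 was clearly low (-0.16, SE 0.09, adjusted p = 0.22). Hsp90b1 and Dnajc10 turned to 0.16 and 0.08 with the correction for gene length. Dnajc14 was the 1 ER member that fell, with 690, 667 and 431 against 447, 384 and 404, where wild type 3 lay among the mutants (-0.53, SE 0.17, adjusted p = 0.028). Without wild type 3 it was called at -0.71, without wild type 1, wild type 2, mutant 2 or mutant 3 its adjusted p was 0.0727 to 0.14, and 36.5% of its exons lie opposite those of Ormdl2. The remaining 5 ER genes, Hspa13, Dnajc1, Dnajc16, Dnajc18 and Dnajc25, ran from -0.11 to 0.25 with none past the threshold.

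In mitochondria, the genes that rose were Dnajc19 and Dnajc15. Both encode J-domain proteins of the inner membrane, the first being a part of the motor that imports proteins with the mitochondrial HSP70. Dnajc19 had 1010, 956 and 1080 in wild type 1 to 3 and 1360, 1430 and 1400 in mutant 1 to 3, well apart (log2 fold change 0.46, SE 0.10, edgeR adjusted p = 0.0025), and was called without wild type 3 at 0.53. Dnajc15 had 912, 860 and 999 against 1180, 1290 and 1060 (0.35, SE 0.11, adjusted p = 0.026). That HSP70 itself, encoded by Hspa9, had 15600, 14900 and 13100 against 16900, 15400 and 17000, overlapping (0.17, SE 0.07, adjusted p = 0.090). Hspd1 had 28600, 29100 and 30400 against 32000, 31400 and 31800, above wild type in each mutant library, and did not pass (0.11, SE 0.06, adjusted p = 0.17). Its partner Hspe1, its neighbour on the other strand, had 4770, 4540 and 5560 against 5350, 5990 and 5220 (0.16, SE 0.08, adjusted p = 0.18), and each has 1 near-identical locus elsewhere. Dnaja3, the J-domain protein of the matrix, had 3550, 3150 and 2810 against 3380, 2940 and 3390 (0.03, SE 0.09, adjusted p = 0.84), and Dnajc11 and Dnajc30 lay at -0.07 and 0.17 without passing.

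Of the J-domain genes placed in none of these compartments, 2 fell and 1 rose. Dnajc27 (chr12:4082612-4110602, plus strand), a RAB-like GTPase with a J domain, had normalized counts of 151, 163 and 195 in wild type 1, 2 and 3 and of 54.8, 77.6 and 92.8 in mutant 1, 2 and 3. The groups were far apart, at a log2 fold change of -1.17 (SE 0.26, edgeR adjusted p = 0.0037). The call was lost without wild type 1 (adjusted p = 0.0101), wild type 2 (0.013), wild type 3 (0.012), mutant 1 (0.019) or mutant 2 (0.013), with log2 fold changes of -1.25 to -0.99, and with the length correction (-0.95, adjusted p = 0.014). Dnajc28 (chr16:91614502-91619271, minus strand) had 87.1, 61.4 and 115 against 22.7, 25.5 and 48.6, with mutant 3 nearest to wild type. At -1.44 (SE 0.40, adjusted p = 0.014) it missed the calling rule, and DESeq2 (adjusted p = 0.0097), the fit with no filter on low counts (0.0040) and that without mutant 3 (0.0080) called it. Dnajc22, a membrane protein, rose, with 1040, 1120 and 1070 against 1340, 1330 and 1270 (0.28, SE 0.09, adjusted p = 0.033). Hspb11, which despite its name is a subunit of ciliary transport, had 136, 151 and 121 against 117, 148 and 117 (-0.10, SE 0.23, adjusted p = 0.79), and Dnajc4 and Dnajc13 did not pass at 0.28 (SE 0.18) and -0.24 (SE 0.13).

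The regulators and partners of these chaperones were read from lists. Of the heat shock factors and their binding protein, 3 of 5 genes were tested. Hsf1, the factor itself, had a log2 fold change of -0.05 (SE 0.08, edgeR adjusted p = 0.66), Hsf2 one of 0.28 (SE 0.40, adjusted p = 0.63) and Hsbp1 one of -0.01 (SE 0.09, adjusted p = 0.94). Of 27 partners of HSP70 and HSP90, 7 rose and 2 fell, with a median of 0.12. Of all tested genes 13.6% rose and 15.1% fell, and of those with a mean of at least 1000 normalized counts 30.1% and 10.8%. Fkbp8, a membrane-bound immunophilin, was called lower, with 5230, 5210 and 4330 against 3720, 2980 and 3320 (-0.56, SE 0.09, adjusted p = 0.00046), and it fell short of the fold with the length correction at -0.32 and without mutant 2 at -0.48. The nucleotide exchange factor Hspbp1 lay at -0.03 (SE 0.07). Chosen after their values were seen, Chordc1, an HSP90 partner, rose by a log2 fold change of 0.31 and Bag3, an HSP70 partner that heat shock induces, fell by 0.78 (adjusted p = 0.0044 and 0.047).

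In the unfolded protein response and ER folding list, 8 of 40 genes rose and 5 fell at an adjusted p under 0.05, with a median log2 fold change of 0.05. Of all tested genes 13.6% rose and 15.1% fell, with a median of -0.04. Of those with a mean of at least 1000 normalized counts, 30.1% rose and 10.8% fell, with a median of 0.12. In the list, with library size alone 5 rose and 9 fell, with a median of -0.06, and with the length correction 15 rose and 2 fell. Those called higher were Edem1, Herpud1 and Ddit3. Edem1, which sends misfolded glycoproteins to degradation, had 375, 464 and 420 in wild type 1 to 3 and 1380, 1560 and 1390 in mutant 1 to 3 (1.78, SE 0.12, edgeR adjusted p = 2.8e-08). Herpud1, of the same degradation pathway, had 2550, 1910 and 2130 against 4050, 3810 and 3920 (0.84, SE 0.09, adjusted p = 1.2e-05). Ddit3, the stress factor CHOP, had 314, 374 and 437 against 673, 823 and 528 (0.85, SE 0.17, adjusted p = 0.0020). Its call was lost on leaving out wild type 1 (0.0144), wild type 2 (0.0104) or mutant 2 (0.0163). Atf6b and Syvn1 were called lower, both at -0.69, with SEs of 0.14 and 0.16 and adjusted p of 0.0017 and 0.0049. Atf6b was not called without wild type 1, wild type 2 or mutant 2 (adjusted p 0.0104 to 0.0141), and Syvn1 not without wild type 1, wild type 2, mutant 2 or mutant 3 (0.0208 to 0.0386), nor with the length correction (-0.45, adjusted p = 0.028). Syvn1, the ubiquitin ligase of the degradation complex, thus moved opposite to Edem1 and Herpud1, and Xbp1 lay at 0.06 (SE 0.07, adjusted p = 0.60). Of the other regulators, named after their values were seen, Atf4 rose, with 4960, 5110 and 5310 against 6810, 7350 and 7180 (0.47, SE 0.07, adjusted p = 0.00013), and Atf6 lay at -0.42 (SE 0.22, adjusted p = 0.17). Disulfide isomerases of the list, such as Pdia3, with 48000, 42700 and 51200 against 45200, 46500 and 46600, did not pass.

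In the mitochondrial list of folding factors and proteases, 4 of 12 genes rose and 0 fell, with a median of 0.17. By the same threshold 13.6% of all tested genes rose. Among all genes with a mean of at least 1000 normalized counts 30.1% did, with a median of 0.12. Trap1, the mitochondrial HSP90, had 5860, 5910 and 5570 against 6810, 6310 and 6830 (0.20, SE 0.07, edgeR adjusted p = 0.037). Singled out after its values were seen, Grpel1, the nucleotide exchange factor of Hspa9, had 5480, 5540 and 6240 against 7950, 7960 and 7390 (0.43, SE 0.07, adjusted p = 0.00052).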

How the data were processed

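Gene expression was compared in 6 libraries of sorted E13.5 small intestine epithelium, 3 per genotype. The authors made cDNA from 500 cells over 15 PCR cycles, mapped reads with STAR 2.5.2b to mm9, assigned uniquely mapping reads to genes with featureCounts 1.5.1 and deposited these raw counts without normalization. Their analysis used DESeq2 1.18.1, with thresholds that the calling rule here follows, except that a mean normalized count of 50 stands for an RPKM of 50. The strand setting, sex and litter are not given in the sources used here, nor whether libraries of a group came from separate embryos, so p-values measure the spread between libraries, which may be technical. Reads without molecular identifiers are not independent molecules.

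Counts were tested with edgeR 4.0.16 (R 4.3.3; TMM, filterByExpr, quasi-likelihood test on genotype, Benjamini-Hochberg adjustment). Normalized counts are printed to 3 significant digits. RPKM was computed from merged exons of an mm9 annotation, and long retained exons lower it. Near-identical loci are BLAST+ 2.17.0 hits of 95% identity or more over 50% of a transcript. Members and lists were chosen with earlier results of these data known, and compartments and roles are from general knowledge. Genes are named if called, if past an adjusted p of 0.05, if highest per length in a family of a compartment, if on a fixed list of 19 chaperones, or, in other lists, if called or one of Hsf1, Xbp1, Hspbp1 and Trap1. The alternatives were DESeq2 1.42.0, RLE or library size scaling, other filters and thresholds, a replicate block, leaving out each library, and an offset for gene length by loess (span 0.5). Tested on simulated data of 12501 genes for this comparison, edgeR found 52% of genes with a log2 change of 0.5 in either direction at an adjusted p under 0.05, and 90% and 94% of those with -1 and 1. It also called 8 unchanged genes. The simulation changed 50 genes at each of the folds -1, -0.5, 0.5 and 1, all with a mean of at least 50 counts. In the data 13.6% of tested genes rose and 15.1% fell, so the simulated rates need not hold there.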

Additional observations from a re-analysis of the deposited data

How the results depend on the processing

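Of 635 values of named genes under the alternatives, 572 kept their direction and their side of the calling rule, 31 kept only the direction, 16 newly passed the rule and 16 changed sign. The 2 members called higher became 0 when scaled by library size alone, 9 with the gene-length correction, 1 at a minimum log2 fold change of 1, 7 with no minimum fold, 0 at an RPKM of at least 50 and 0 to 3 with 1 library left out. The 1 called lower became 2 with DESeq2, 2 with no filter on low counts, 2 with a filter at a mean of 50, 0 with the length correction, 3 at an adjusted p under 0.05, 0 at an RPKM of at least 50 and 0 to 2 with 1 library left out. Calls over all genes moved too. Of 12501 tested genes, 348 were called higher in the main fit, 200 with library size and 778 with the length correction. With 1 library left out, 260 to 516 genes were. Called lower were 729 in the main fit, 399 with the length correction and 405 to 867 with 1 library left out. DESeq2 gave 785 of 17112, no filter 895 of 17112 and the filter at a mean of 50 gave 836 of 10564. At an adjusted p under 0.05, the 16 higher members became 8 with library size, 26 with the length correction and 8 to 20 with 1 library left out, and the 6 lower ones 2 with the length correction and 1 to 7. The median log2 fold change of all members, 0.09, was 0.11 with DESeq2, 0.11 with RLE, -0.01 with library size, 0.19 with the length correction and 0.08 to 0.14 with 1 library left out. For cytosol and nucleus it was -0.02 with library size, 0.15 with the length correction and 0.06 to 0.14 with 1 library left out. For the ER it was 0.02, 0.35 and 0.05 to 0.18. For the mitochondrion it was 0.06, 0.20 and 0.12 to 0.20, and 0.18 with DESeq2, 0.18 with RLE and 0.15 with a filter at a mean of 50. Signs turned with library size in Dnajc3 (-0.08), Dnaja3 (-0.08), Hsp90ab1 (-0.02), Dnaja1 (-0.04), Hspb1 (-0.01) and Xbp1 (-0.05), and with the length correction in Hsp90b1 (0.16), Dnajc10 (0.08), Hsph1 (0.08) and Hsf1 (0.03). With 1 library left out, they turned within -0.02 to 0.07 in Dnajc3, -0.04 to 0.12 in Dnaja3, -0.09 to 0.30 in Hspb1, -0.09 to 0.02 in Hsf1 and -0.05 to 0.01 in Hspbp1. The causes were not tested. Some genes that did not pass an adjusted p of 0.05 in the main fit did so in an alternative one (edgeR or DESeq2). Among them were Hspa9 (lowest adjusted p 0.00065), Hsp90ab1 (0.0049), Dnaja1 (0.023), Dnaja3 (0.03), Dnajc3 (0.034) and Xbp1 (0.034). A replicate block gave 2 members called higher, 1 lower, 11 that rose and 4 that fell past an adjusted p of 0.05, and a median of 0.10. With the block 11.2% of all tested genes rose and 13.6% fell. Same-numbered libraries did not deviate together (correlations of 0.00971, -0.0449 and -0.0179), so the numbers were not taken to pair them. In the simulated data, with 50 genes changed at each fold, changes of 0.5 were missed about as often as found. That rate does not carry over to single members, as abundant genes with a small SE passed at smaller changes. Hspa8 did so at 0.21 (SE 0.06, edgeR adjusted p = 0.017).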

Other observations

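The cytosolic chaperonin TRiC, a ring that folds actin and tubulin, and prefoldin, which hands it clients, were also compared. In 13 of 13 tested genes the log2 fold change was above 0, with a median of 0.22, and 9 rose and 0 fell by edgeR's quasi-likelihood test at an adjusted p under 0.05. Of all genes with a mean of at least 1000 normalized counts, 67.3% were above 0, with a median of 0.12. Every mutant library lay above every wild type library in 10 of the 13, as in 40.4% of all genes at that level and 20.8% of all tested genes. Scaled by library size alone, 11 of 13 were above 0, 5 rose and the median was 0.11. Examples were chosen after the values were seen. Tcp1, which encodes the first subunit, had 19100, 18200 and 21000 normalized counts in wild type 1 to 3 and 24000, 26000 and 24400 in mutant 1 to 3, a log2 fold change of 0.35 (adjusted p = 0.0015). The smallest value was that of the prefoldin gene Pfdn2, at 0.06 (adjusted p = 0.66). By the same rule 30.1% of all genes at that level rose.

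Immediate early genes, which respond to stimulation and to cell handling, moved both ways, with 6 of 18 higher and 6 lower past an adjusted p of 0.05 by edgeR, where 13.6% and 15.1% of all tested genes were. Of all genes with a mean of at least 1000 normalized counts, 30.1% were higher and 10.8% lower. Scaled by library size alone, 4 were higher and 7 lower, and with the length correction 6 were higher and 4 lower. Atf3, a stress-induced repressor, had 12700, 9770 and 13100 against 23300, 24200 and 25200, a log2 fold change of 1.03 (edgeR adjusted p = 9.6e-07). Klf6 was called higher at 0.94 and Jun lower at -1.11, with 5740, 5890 and 5850 against 2990, 2500 and 2620.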
